A study of Mus musculus with 28 samples.

Results

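The 44 genes described here encode proteins that carry a dividing cell through G2 and mitosis. They were chosen by symbol from what their products are known to do, with earlier results of these data known, and all 44 were among the 26790 genes tested in bulk ovary RNA. By role they comprise 8 cyclins and regulators of Cdk1, 8 mitotic kinases, 4 partners or targets of the anaphase-promoting complex, 7 centromere, kinetochore or passenger proteins, 5 kinesin motors, 5 spindle assembly or bundling proteins, 3 cytokinesis proteins and 4 chromosome structure proteins.

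Ovaries of mouse females were collected 6 h after a single total-body dose of 0.5 Gy of Cesium-137 gamma radiation or after sham treatment, to ask how the ovary responds to DNA damage with and without CHEK2. CHEK2 is the checkpoint kinase that relays double-strand breaks to p53 and TAp63. The females were wild-type (C57BL/6J) or homozygous for the Chek2tm1b(EUCOMM)Hmgu allele (Chek2-/-), a germline allele and so present in every cell of the animal, and were 7 to 9 days old at irradiation. Bulk RNA came from 6 libraries in each of the 4 groups, namely non-irradiated wild-type, irradiated wild-type, non-irradiated Chek2-/- and irradiated Chek2-/-, and 1 library of dissociated cells was made from each of the same 4 conditions with the ovaries of 4 females aged 7 days pooled. Whether wild-type and Chek2-/- females were littermates was not given in the sources used here, so a difference between the lines and a difference due to the allele cannot be told apart.

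Cells that leave G2 do so when Cdk1 bound to cyclin B is switched on, a step that the Cdc25 phosphatases allow and the Wee1 kinase holds back. The mitotic kinases, motors and centromere proteins then build the spindle, and the anaphase-promoting complex ends mitosis by marking cyclin B and securin for destruction. Most of these genes are transcribed late in the cell cycle under the DREAM and MuvB complexes, B-Myb and FoxM1, whose usual promoter elements are the CHR and the CCAAT box. In the juvenile ovary the dividing cells are somatic, mainly granulosa cells of growing follicles and stromal cells, whereas oocytes rest in meiotic prophase and store mRNA for the divisions of meiosis.

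The promoter windows are shown because they are a sequence feature, which was not part of the rule that chose the genes. RefSeq promoter windows of 300 bases, from 250 before to 50 after each transcription start (GRCm38.p6), were matched for 37 of the 44 genes. The CHR was searched as TTTGAA or TTCGAA on both strands, so that it can also read TTCAAA. It was present in 29 of the 37 genes (78.38%), against 21.66% of all 27025 genes in the table. Within 60 bases before the start to the end of the window it was present in 67.57% of the members and 6.794% of all genes. CCAAT, searched on both strands with overlap with the CHR allowed, was found in 83.78% of the members and 41.06% of all genes, and 56.76% of the members but 13.27% of all genes held at least 2 CCAAT in a promoter. These are matches of letters and not shown to be sites of binding. The following stretches carry a CHR, in capitals, within 60 bases before the start, and are written 5′ to 3′ on the strand of the gene.
Cdk1 (chr10:69352913-69352939, minus strand, 9 bases before the start): taccgcggcgagTTTGAAactgctggc
Cdc20 (chr4:118437344-118437373, minus strand, 12 bases before the start): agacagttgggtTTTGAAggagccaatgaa
Ube2c (chr2:164769888-164769917, plus strand, 23 bases before the start): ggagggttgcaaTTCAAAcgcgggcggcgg
Kif11 (chr19:37376351-37376380, plus strand, 13 bases before the start): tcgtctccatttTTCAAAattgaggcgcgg
Prc1 (chr7:80294434-80294463, plus strand, 24 bases before the start): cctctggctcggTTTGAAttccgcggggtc
Fam83d (chr2:158768037-158768066, plus strand, 44 bases before the start): gggctggtttgaTTCAAAgatgcctataaa
Cep55 (chr19:38054996-38055025, plus strand, 27 bases before the start): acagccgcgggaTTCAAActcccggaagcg
Top2a (chr11:99024195-99024224, minus strand, 17 bases before the start): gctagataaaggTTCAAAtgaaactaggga

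The deposited bulk counts summed to 17824900 to 32605500 per library. Chek2, the deleted gene, ran from 18.5 to 24.6 CPM (counts scaled to a common library size) in the 12 wild-type libraries and from 2.88 to 4.53 in the 12 Chek2-/- libraries, so the groups did not overlap. Markers of all main ovarian cell types were present, the 8 oocyte markers summing to 1058 to 2499 CPM per library. Erythroid markers were highest in Chek2-/- non-irradiated library 5 (10445 CPM) and Chek2-/- irradiated library 2 (7047 CPM), and neutrophil markers in wild-type irradiated library 3 (1431 CPM) and Chek2-/- irradiated library 2 (1614 CPM). With those 3 libraries left out, still none of the 44 genes passed the test in any comparison. The labels do not say that libraries of a group came from separate litters, so p-values measure the spread between these libraries.

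Both Chek2-/- libraries numbered 6, non-irradiated and irradiated, stood apart in the G2 and mitosis genes. The 44 genes summed to 2750 CPM in the non-irradiated and 2890 CPM in the irradiated library 6, against 3501 to 4318 CPM in the other 22 libraries. Above the mean of the 24 libraries lay 1 of the 44 genes in the former and 0 in the latter. The 8 oocyte markers were also lowest there, at 1058 and 1188 CPM against 1905 CPM or more elsewhere, and the 8 epithelial markers summed to 1223 and 1045 CPM. In bulk tissue fewer cells of a type and less RNA per cell cannot be told apart, and the part of the oocyte and epithelial content in the low values was not tested. Differences of named genes between genotypes without irradiation are given below with and without both libraries. Both were singled out by low values of these same genes, after seeing the data. Calls made without them are therefore a description and not a further test.

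**Figure D1:**
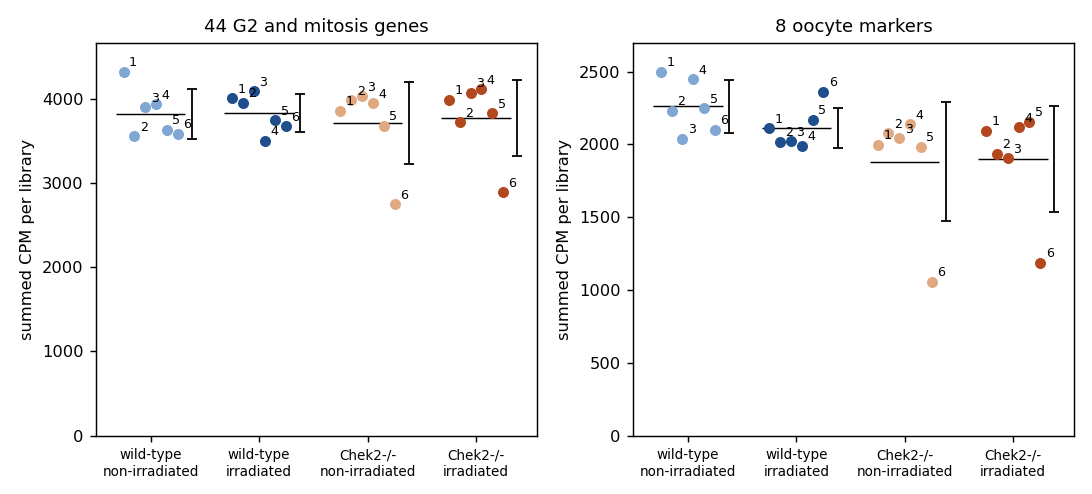
Summed CPM of the 44 G2 and mitosis genes (left) and of 8 oocyte markers (right) in each bulk library, by group. Points are libraries with their numbers, horizontal lines the mean of 6 and vertical bars beside the points the SD; both Chek2-/- libraries numbered 6 lie lowest in both panels, at 2750 and 2890 CPM for the 44 genes.

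Irradiation left the bulk level of the G2 and mitosis genes within the spread of the libraries in both genotypes. The summed level was 3819 ± 293 CPM in non-irradiated and 3826 ± 224 in irradiated wild-type ovaries (SD, n = 6), and 3707 ± 485 and 3768 ± 454 in Chek2-/- ovaries. In edgeR's quasi-likelihood test, with p-values adjusted after Benjamini and Hochberg, 0 of the 44 genes passed an adjusted p of 0.05 in wild-type ovaries, where 2.41% of all genes passed (1.53% higher and 0.885% lower), and 0 in Chek2-/- ovaries, where 0.0112% did. At an unadjusted p under 0.05 edgeR counted 1 member in wild-type (11.4% of all genes) and 0 in Chek2-/- (4.4%), and DESeq2 and limma-voom called none after adjustment in either. The median log2 fold change over the members was 0.01 in wild-type, with 24 positive and 20 negative, and 0.03 in Chek2-/-, with 32 and 12, beside medians over all genes tested of -0.00409 and 0. Without both Chek2-/- libraries numbered 6 the Chek2-/- median was 0.01, with 28 positive and 16 negative and still 0 called by edgeR, where 0 had an unadjusted p under 0.05. In wild-type that setting called 1 member higher by edgeR, where 2.11% of all genes were. At an unadjusted p under 0.05 it counted 4 members higher and 2 lower in wild-type, for which the share of all genes is not given here. No member had irradiated and non-irradiated libraries without overlap, as 1.68% of all genes had upwards and 0.885% downwards in wild-type, and 0.0896% and 0.0597% in Chek2-/-. The 8 oocyte markers had a median of -0.20 in wild-type and 0.02 in Chek2-/-, with 0 passing the edgeR test and 4 and 0 at an unadjusted p under 0.05, and the part of oocyte content in the members' values was not tested. The 95% interval of every member lay within 0.5 log2 units of 0 in both genotypes, and in wild-type the intervals reached from -0.41 (Kif4) at the low end to 0.50 (Fam83d) at the high end. The fit shares the spread of a gene over all 24 libraries, so Chek2-/- libraries also set the SEs and calls in wild-type. Without both Chek2-/- libraries numbered 6 the wild-type SE of Kif4 went from 0.17 to 0.05, while its estimate was -0.06 and -0.05.

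**Figure D2:**
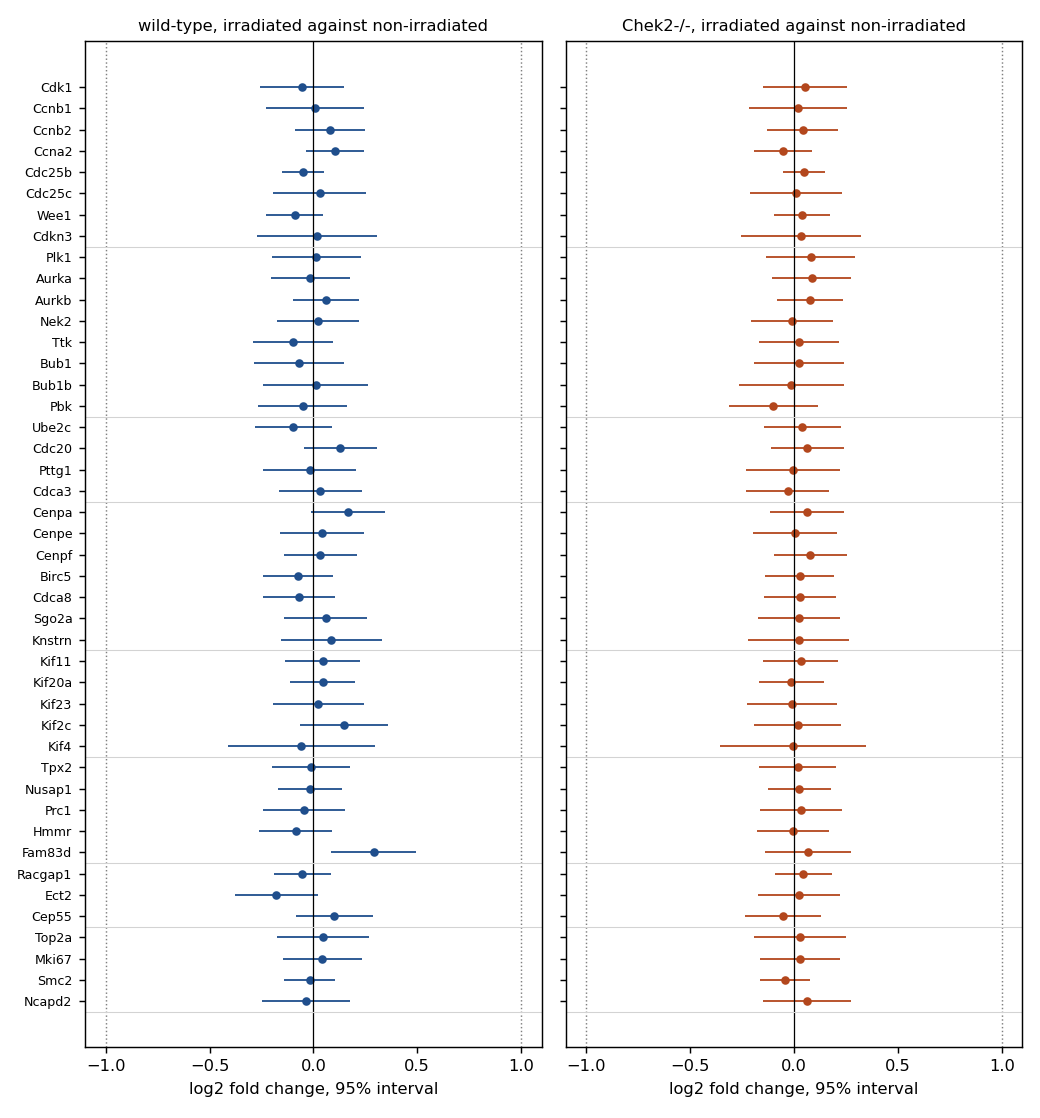
Log2 fold change, irradiated against non-irradiated, of each of the 44 genes in wild-type (left) and Chek2-/- (right) bulk ovaries, from edgeR over 24 libraries. Points are estimates, bars 95% intervals, grey lines separate the roles and dotted lines mark a 2-fold change; all intervals lie within 0.5 log2 units of 0 and only that of Fam83d in wild-type leaves out 0.

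Among the cyclins and regulators of Cdk1, no member moved beyond its spread. Cdk1 (ENSMUSG00000019942), the kinase that starts mitosis, ranged from 85.3 to 115 (median 92.3) CPM in non-irradiated wild-type libraries, 84.8 to 97.8 (median 91.1) in irradiated wild-type, 65.8 to 102 (median 98.4) in non-irradiated Chek2-/- and 71.1 to 105 (median 101) in irradiated Chek2-/-. Cyclin B1 (Ccnb1), its partner, ranged from 85.7 to 124 (median 93.9) CPM in non-irradiated wild-type libraries, 83 to 105 (median 102) in irradiated wild-type, 62.2 to 107 (median 98.4) in non-irradiated Chek2-/- and 69.4 to 107 (median 98.9) in irradiated Chek2-/-. All 4 groups of either gene overlapped, and the lowest Chek2-/- value of each was library 6. Their log2 fold changes in wild-type were -0.06 ± 0.10 and 0.01 ± 0.11 (SE, n = 6 per group). In the same order of groups, the median CPM of cyclin B2 (Ccnb2) was 49.1, 52.9, 48.4 and 49.5, and that of cyclin A2 (Ccna2), which acts from S phase to early mitosis, 93, 101, 103 and 95.1. The Cdk1-activating phosphatase Cdc25b had medians of 60.5, 58.7, 58.2 and 61.7 CPM, and its relative Cdc25c of 10, 11.2, 10.6 and 10.7. Wee1, the kinase that inhibits Cdk1, had medians of 26.4, 24.3, 25 and 25.7 CPM and a log2 fold change of -0.09 ± 0.07 in wild-type and 0.04 ± 0.07 in Chek2-/-. Over the 8 genes of this role the log2 fold changes ran from -0.09 to 0.10 in wild-type and from -0.05 to 0.05 in Chek2-/-. Sequences close to Ccnb1 and Ccnb2 exist in the mouse as annotated pseudogenes, so part of their reads may have been shared.

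The 8 mitotic kinases had log2 fold changes between -0.10 and 0.06 in wild-type and between -0.10 and 0.08 in Chek2-/- ovaries. Polo-like kinase 1 (Plk1) had medians of 62.2, 61, 58.4 and 61.6 CPM in the 4 groups. Aurora A (Aurka), which matures the spindle poles, had medians of 53.1, 55.9, 54.1 and 55.6, and Aurora B (Aurkb), the catalytic part of the chromosomal passenger complex, of 36.2, 37.6, 36.3 and 37.6. These 3 had the highest estimates of all members in Chek2-/- ovaries, each 0.08, with SEs of 0.10, 0.09 and 0.08, so none differed from 0 beyond its error. Bub1, a kinase of the spindle checkpoint, had medians of 54.2, 52.4, 62.5 and 60.3 CPM. Ttk, another checkpoint kinase, was among the lowest estimates in wild-type at -0.10 ± 0.09, and Pbk was lowest in Chek2-/- at -0.10 ± 0.10.

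Genes of the anaphase-promoting complex group showed the same absence of a called change. Ube2c, the ubiquitin-conjugating enzyme of the complex, ranged from 109 to 125 (median 113) CPM in non-irradiated wild-type libraries, 97.5 to 113 (median 111) in irradiated wild-type, 79.3 to 129 (median 123) in non-irradiated Chek2-/- and 93.6 to 129 (median 123) in irradiated Chek2-/-. Its irradiated and non-irradiated libraries overlapped in both genotypes. Cdc20, which activates the complex, had medians of 53.4, 57.5, 55.8 and 56.8 CPM and a log2 fold change of 0.13 ± 0.09 in wild-type. Securin (Pttg1) differed by -0.02 ± 0.11 in wild-type ovaries.

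Centromere and passenger genes, motors and spindle proteins held a single member that approached the threshold. Fam83d (ENSMUSG00000027654), which brings casein kinase 1 to the spindle, ranged from 20 to 26.2 (median 22.2) CPM in non-irradiated wild-type libraries, 25.3 to 31.3 (median 27.7) in irradiated wild-type, 16 to 25.1 (median 22) in non-irradiated Chek2-/- and 17.4 to 26.8 (median 23.5) in irradiated Chek2-/-. Only the highest of the 6 non-irradiated wild-type libraries reached into the irradiated range. The log2 fold change was 0.29 ± 0.10 in wild-type (SE, n = 6 per group, edgeR adjusted p = 0.176) and 0.07 ± 0.10 in Chek2-/-. Without both Chek2-/- libraries numbered 6, Fam83d was called higher in irradiated wild-type ovaries at 0.29 with an edgeR adjusted p of 0.0149, where 2.11% of all genes were called upwards. It was also called with only the wild-type libraries in the fit (adjusted p = 0.0338). The difference of its irradiation effect between genotypes was 0.22 ± 0.14 (adjusted p = 0.731).

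Next to Fam83d the highest wild-type estimates were 0.17 ± 0.09 for Cenpa, the centromeric histone H3 variant, and 0.15 ± 0.10 for Kif2c, a kinesin that takes apart microtubule ends. The lowest were -0.18 ± 0.10 for Ect2, which activates RhoA for cytokinesis, -0.10 for Ttk and -0.10 for Ube2c. Survivin (Birc5) had medians of 107, 102, 105 and 104 CPM in the 4 groups. Cenpf, a large kinetochore protein, had medians of 157, 162, 163 and 169, and shugoshin 2 (Sgo2a), which protects cohesin, of 28.4, 30.1, 32.5 and 31.6. The mitotic kinesin Kif11 stood at 104, 109, 108 and 109 CPM, Tpx2, which loads Aurora A on the spindle, at 118, 120, 132 and 130.4 and Racgap1, of the centralspindlin complex, at 97.6, 94.6, 94.6 and 98.7. None of these had an edgeR adjusted p under 0.4 in wild-type, and all were at 1 in Chek2-/-.

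The chromosome structure genes gave the same picture. Top2a (ENSMUSG00000020914), the topoisomerase that untangles sister chromatids, ranged from 231 to 300.1 (median 246) CPM in non-irradiated wild-type libraries, 217 to 304 (median 264) in irradiated wild-type, 191 to 296 (median 268) in non-irradiated Chek2-/- and 193 to 301 (median 268) in irradiated Chek2-/-. Mki67, which coats mitotic chromosomes and is the usual marker of cycling cells, ranged from 361 to 449 (median 389) CPM in non-irradiated wild-type libraries, 346 to 482 (median 409) in irradiated wild-type, 299.6 to 422 (median 387) in non-irradiated Chek2-/- and 303 to 437 (median 399) in irradiated Chek2-/-. Groups overlapped throughout, with log2 fold changes of 0.05 ± 0.11 and 0.04 ± 0.09 in wild-type. The condensin subunits Smc2 and Ncapd2 differed by -0.02 ± 0.06 and -0.04 ± 0.10.

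Whether the effect of irradiation depended on genotype was tested as the difference of the log2 fold changes, Chek2-/- subtracted from wild-type. No member passed by edgeR at an adjusted p of 0.05, by DESeq2 or by limma-voom, 0 had an unadjusted p under 0.05 (9.14% of all genes), and 1.03% of all genes passed in edgeR (0.694% positive and 0.34% negative). The median difference was -0.01, with 21 members positive and 23 negative. The highest differences were 0.22 ± 0.14 for Fam83d, 0.16 ± 0.10 for Ccna2 and 0.15 ± 0.13 for Cep55, a protein of the abscission site. The lowest were -0.20 ± 0.14 for Ect2, -0.14 ± 0.13 for Ube2c and -0.13 ± 0.09 for Wee1. Intervals of 42 of the 44 members lay within 0.5 log2 units of 0, and those of the other 2 reached to -0.55 and 0.51. Without both Chek2-/- libraries numbered 6 the count by edgeR was also 0, where 0.835% of all genes were called positive and 0.476% negative. At an unadjusted p under 0.05 that setting counted 2 members, for which the share of all genes is not given here. Fam83d differed by 0.23 (edgeR adjusted p = 0.491).

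Without irradiation, Chek2-/- and wild-type ovaries were also close in these genes. No member passed an adjusted p of 0.05 by edgeR, where 5.34% of all genes did (3.12% higher and 2.22% lower), 3 had an unadjusted p under 0.05 (21.6% of all genes) and DESeq2 called 2, Pttg1 and Smc2, where it called 15.9% of the genes it gave an adjusted p. Of the 44 genes, 15 were higher and 29 lower in Chek2-/-, with a median of -0.05. Leaving out both Chek2-/- libraries numbered 6 turned this into 25 higher and 19 lower with a median of 0.02, and then 2 members were called higher and 1 lower, where 3.37% and 3.72% of all genes were. The direction of the members as a group thus rested on those libraries. No member had groups without overlap, as 1.68% of all genes had upwards and 1.53% downwards. Of the cell type markers, 3 of 8 fibroblast and 2 of 7 pericyte markers were lower and 1 of 8 granulosa markers higher in Chek2-/- ovaries, and their part in the members' values was not tested.

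Pttg1 (ENSMUSG00000020415), the inhibitor of separase that holds sister chromatids together, had the lowest estimate of the 44 genes. It ranged from 47.3 to 70.3 (median 52.8) CPM in non-irradiated wild-type libraries, 51.6 to 58.7 (median 53.2) in irradiated wild-type, 28.7 to 49.5 (median 44) in non-irradiated Chek2-/- and 31.8 to 46.8 (median 44.3) in irradiated Chek2-/-. The Chek2-/- libraries lay mostly under the wild-type ones, with an overlap at the margin. The log2 difference between genotypes without irradiation was -0.36 ± 0.11 (edgeR adjusted p = 0.0555), and -0.27 without both libraries numbered 6 (adjusted p = 0.0322). Pttg1 was the member with the highest oocyte-like over dividing somatic level in single cells. The part of oocyte content in its difference, in libraries 6 and in the other libraries, was not tested.

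Smc2 (ENSMUSG00000028312), a core subunit of both condensins, ranged from 75.3 to 95.6 (median 87.7) CPM in non-irradiated wild-type libraries, 81.8 to 90.3 (median 84.1) in irradiated wild-type, 85.6 to 106 (median 102) in non-irradiated Chek2-/- and 82.7 to 106 (median 97.3) in irradiated Chek2-/-. The difference of 0.19 ± 0.06 (edgeR adjusted p = 0.0541) became 0.23 with an adjusted p of 0.00852 without libraries 6. Ect2 ranged from 102 to 142 (median 117) CPM in non-irradiated wild-type libraries, 98.2 to 121 (median 103) in irradiated wild-type, 98.2 to 160 (median 139.8) in non-irradiated Chek2-/- and 116 to 157 (median 140.5) in irradiated Chek2-/-, and its difference of 0.19 ± 0.10 (adjusted p = 0.257) became 0.27 with an adjusted p of 0.0361. Among the settings run, Ect2 was called in that one only, and Smc2 also in others, DESeq2 among them. Knstrn, a kinetochore partner of astrin, differed by -0.28 ± 0.12 (adjusted p = 0.170), Cenpe by 0.16 ± 0.10 and Kif4 by -0.23 ± 0.17. Without libraries 6 these differences were -0.19 ± 0.08 (edgeR adjusted p = 0.153), 0.23 ± 0.07 (adjusted p = 0.0557) and -0.09 ± 0.06 (adjusted p = 0.383). Kif4, a chromokinesin with an annotated pseudogene, ran from 84.6 to 203 CPM in non-irradiated Chek2-/- libraries, where library 6 held the lowest value.

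Among neighbouring genes, some of the cell cycle brakes rose. Of 9 genes that brake the cycle, several of them known p53 targets, 4 rose in irradiated wild-type ovaries (1.53% of all genes), 1 rose in Chek2-/- ovaries (0.0112%), and 3 had an effect that differed between genotypes (1.03%). Cdkn1a, the p21 inhibitor of cyclin-dependent kinases, ranged from 22 to 36.6 (median 25.2) CPM in non-irradiated wild-type libraries, 75.5 to 104 (median 87.2) in irradiated wild-type, 31.8 to 43 (median 39.7) in non-irradiated Chek2-/- and 37.3 to 59 (median 48.7) in irradiated Chek2-/-. Irradiated wild-type libraries lay above all others. Its log2 fold change was 1.67 ± 0.13 in wild-type (edgeR adjusted p = 2.48e-09) and 0.31 ± 0.12 in Chek2-/- (adjusted p = 0.999). Cyclin G1 (Ccng1), a p53 target, rose by 2.03 ± 0.05 in wild-type and by 0.56 ± 0.05 in Chek2-/- (adjusted p = 2.61e-19 and 6.82e-07). The antiproliferative genes Btg2 and Rprm rose by 1.02 ± 0.14 and 1.00 ± 0.20 in wild-type.

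Among 55 further genes of G2 and mitosis, 3 rose and 1 fell in irradiated wild-type ovaries, where 1.53% and 0.885% of all genes did. None was called in Chek2-/- ovaries by edgeR, where 1 had an unadjusted p under 0.05 (4.4% of all genes). Gtse1, a spindle protein that also restrains p53, ranged from 27.7 to 34.1 (median 30.5) CPM in non-irradiated wild-type libraries, 48.9 to 71.1 (median 58.1) in irradiated wild-type, 23.9 to 33.1 (median 31) in non-irradiated Chek2-/- and 28.5 to 37 (median 33.2) in irradiated Chek2-/-. Its irradiated wild-type libraries stood above all the others, with a log2 fold change of 0.94 ± 0.09 (adjusted p = 5.49e-08). Ckap2, a microtubule-associated protein, rose by 0.55 ± 0.06 (adjusted p = 6.17e-07) and Psrc1, another spindle protein, by 0.74 ± 0.13 (adjusted p = 0.00115). Kif14, a midbody kinesin, fell by 0.36 on the log2 scale (SE 0.10, adjusted p = 0.0489). The effect differed between genotypes for Gtse1 (0.80 ± 0.12, adjusted p = 0.000317) and Ckap2 (0.50 ± 0.08, adjusted p = 0.00105). The median over the 55 genes was -0.02 in wild-type. Without both Chek2-/- libraries numbered 6, 5 of the 55 were called higher and 2 lower in wild-type, where 2.11% and 1.7% of all genes were. The called genes of all neighbouring lists went from 8 to 16, and those among all genes from 646 to 1009.

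Regulators of the late cycle programme did not pass the test after irradiation with all libraries in the fit. Foxm1 had medians of 78.7, 74.9, 68.5 and 72.7 CPM with a log2 fold change of -0.07 ± 0.08 in wild-type, and B-Myb (Mybl2) of 128, 113, 116 and 114 with -0.21 ± 0.09 (edgeR adjusted p = 0.296). Without both Chek2-/- libraries numbered 6, Mybl2 was called lower at -0.21 (edgeR adjusted p = 0.00394), where 1.7% of all genes were. So were Mcm5, Mcm6 and E2f1 of the S phase genes, at -0.14, -0.15 and -0.22. Of 28 S phase genes, 0 passed by edgeR in either genotype after irradiation with all libraries, while at an unadjusted p under 0.05 there were 2 higher and 6 lower in wild-type (11.4% of all genes in either direction) and 0 in Chek2-/- (4.4%). Without irradiation, 4 of them were lower in Chek2-/- ovaries, where 2.22% of all genes were, namely the licensing factor Cdt1 (-0.37 ± 0.10), E2f1 (-0.33 ± 0.08), Gins2 (-0.19 ± 0.05) and Uhrf1 (-0.25 ± 0.07). Of the cell cycle brakes, Gadd45b, Btg2 and Cdkn1a were higher in non-irradiated Chek2-/- ovaries, where 3.12% of all genes were, by 0.69 ± 0.14, 0.59 ± 0.14 and 0.47 ± 0.13, and of the transcription factors the MuvB subunit Lin54, by 0.19 ± 0.05. Without both libraries numbered 6 all 8 of these genes were still called, Cdt1 at -0.30, E2f1 at -0.26, Gins2 at -0.17, Uhrf1 at -0.18, Gadd45b at 0.67, Btg2 at 0.51, Cdkn1a at 0.43 and Lin54 at 0.21 (edgeR adjusted p from 0.00418 to 0.0376). With Chek2 itself, 9 genes of these lists were called between genotypes, a count that fell to 4 without non-irradiated wild-type library 2 or 3, to 2 without library 4, and to 5 without non-irradiated Chek2-/- library 1 or 4.

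The single-cell libraries place the 44 genes in cell types. After limits on genes, mitochondrial and ribosomal UMIs and removal of doublets, 36524 of 40594 barcodes were used (9277 non-irradiated wild-type, 9779 irradiated wild-type, 8697 non-irradiated Chek2-/- and 8771 irradiated Chek2-/-). Libraries shared at most 73 barcodes. Clusters were built without the 44 genes and without genes that vary with them, and were called granulosa-like, fibroblast-like and so on from marker genes. With 1 library per condition there is no test, and the 95% limits given with levels, shares and ratios cover counting error only. Levels are CPM of UMI counts (UMI CPM), from the UMIs of the 44 genes or of 1 gene among all UMIs of the class. All 8 markers of granulosa cells, of fibroblasts and of oocytes stood out in the clusters named after them. The stromal classes shared markers. All 8 fibroblast markers also stood out in the perivascular-like cluster, 5 of 7 pericyte markers in the smallest fibroblast-like cluster, and 4 of 6 perivascular markers in the pericyte-like cluster.

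Oocyte-like cells held the highest level of the 44 genes and epithelial-like cells among the lowest. Their level in oocyte-like cells was 5198, 5934, 5749.8 and 5806 UMI CPM in non-irradiated wild-type, irradiated wild-type, non-irradiated Chek2-/- and irradiated Chek2-/-. Granulosa-like cells had 2916, 2770.3, 2895 and 3717 in the same order, and fibroblast-like cells 3017, 3661, 2905 and 3546. So irradiated libraries had the higher level in fibroblast-like cells of both genotypes and in granulosa-like cells of Chek2-/- ovaries, and a slightly lower one in wild-type granulosa-like cells. Over all cells used the level was 3207, 3312, 2978 and 3733 in the same order. The replicated bulk sums had means of 3819, 3826, 3707 and 3768 CPM, with irradiated and non-irradiated ovaries within the spread of the libraries. The cause of this difference between single cells and bulk was not tested. Perivascular-like cells ranged from 1008 in non-irradiated Chek2-/- to 2894 in irradiated wild-type, and epithelial-like cells from 969 in non-irradiated to 2042 in irradiated wild-type.

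**Figure D3:**
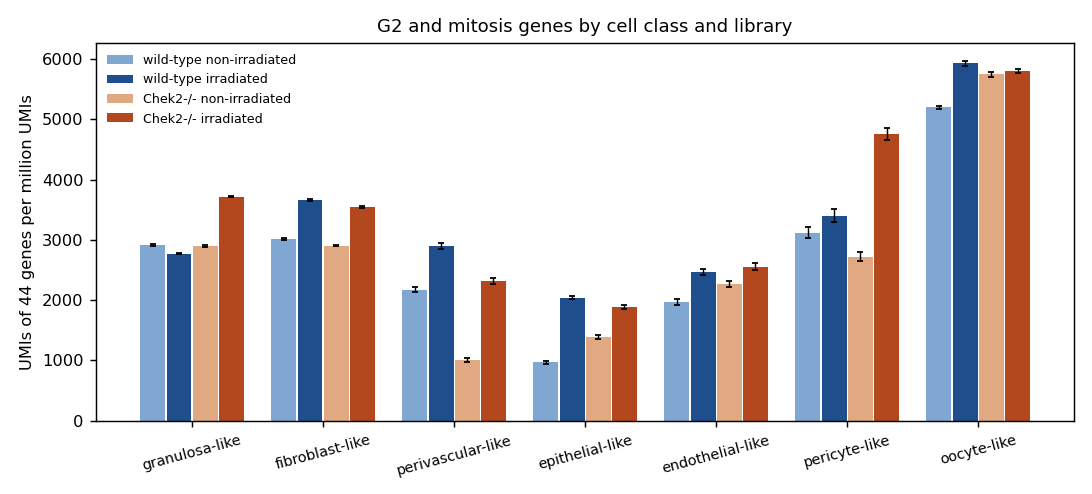
UMI CPM of the 44 G2 and mitosis genes in 7 cell classes of the 4 single-cell libraries. Bars are sums over the cells of a class in 1 library, and error bars exact binomial 95% limits, which cover counting error only. In granulosa-like cells the irradiated bar is lower in wild-type (2916 against 2770.3) and higher in Chek2-/- (2895 against 3717).

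In granulosa-like cells the irradiated over non-irradiated ratio was 0.95 (0.944 to 0.956) in wild-type and 1.28 (1.28 to 1.29) in Chek2-/-. By gene, 9 of 44 had a ratio over 1 in wild-type and 43 in Chek2-/-. At least 1.25-fold higher were 1 of 44 in wild-type, where 8.98% of genes with at least 50 UMIs were, and 28 of 44 in Chek2-/-, where 5.09% were. At least 1.25-fold lower were 1 (7.31% of genes) and 0 (9.28%). Median ratios of the 44 genes were 0.943 and 1.28, beside 0.986 and 0.996 over all genes.

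In fibroblast-like cells the ratio was 1.21 (1.21 to 1.22) in wild-type and 1.22 (1.21 to 1.23) in Chek2-/-, with 44 and 43 of the 44 genes over 1. At least 1.25-fold higher were 12 in each, where 5.86% and 6.07% of genes were, and 0 were lower by as much (7.41% and 5.96% of genes). The 2 genotypes thus had similar ratios in fibroblast-like cells and unlike ones in granulosa-like cells, in 1 library each.

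The makeup of the granulosa-like class differed between libraries. The cluster led by Gm2044, Cst12 and Amhr2, which was low in the 44 genes (828 UMI CPM over the 4 libraries), made up 27.8% of the class in non-irradiated and 38% in irradiated wild-type, against 33.8% and 23% in Chek2-/-. Within the largest granulosa-like cluster, led by Inha and Amh, the ratio was 1.12 (1.11 to 1.13) in wild-type and 1.17 (1.16 to 1.17) in Chek2-/-, within the cluster led by Gm2044 1.12 (1.09 to 1.15) and 1.25 (1.22 to 1.27), and within the smallest, led by Hsd3b1 and Akr1c18, 0.817 (0.804 to 0.831) and 1.01 (0.984 to 1.03). At fixed cluster weights the class ratio was 1.09 in wild-type and 1.16 in Chek2-/-. The part of the makeup in the wild-type class ratio was not tested beyond these values, and the fixed weights were chosen after seeing the data. The fibroblast-like ratio at fixed weights was 1.21 in wild-type and 1.15 in Chek2-/-, and all 3 of its clusters had ratios over 1 in both genotypes.

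The roles did not share 1 ratio in wild-type granulosa-like cells. Partners and targets of the anaphase-promoting complex had a ratio of 1.12 (1.11 to 1.14) and the cyclins and Cdk1 regulators 1.01 (0.991 to 1.02), whereas the mitotic kinases had 0.922 (0.904 to 0.940). Lowest were the spindle assembly proteins at 0.883 (0.867 to 0.899), the cytokinesis proteins at 0.879 (0.851 to 0.908) and the chromosome structure proteins at 0.865 (0.854 to 0.877). In wild-type fibroblast-like cells the same groups came first and last, from 1.34 (1.32 to 1.37) for the anaphase-promoting complex group to 1.12 (1.10 to 1.13) for the chromosome structure group. In Chek2-/- libraries the roles lay close together, between 1.24 (cytokinesis) and 1.31 (chromosome structure) in granulosa-like cells and between 1.17 (cytokinesis) and 1.26 (centromere and passenger proteins) in fibroblast-like cells.

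**Figure D4:**
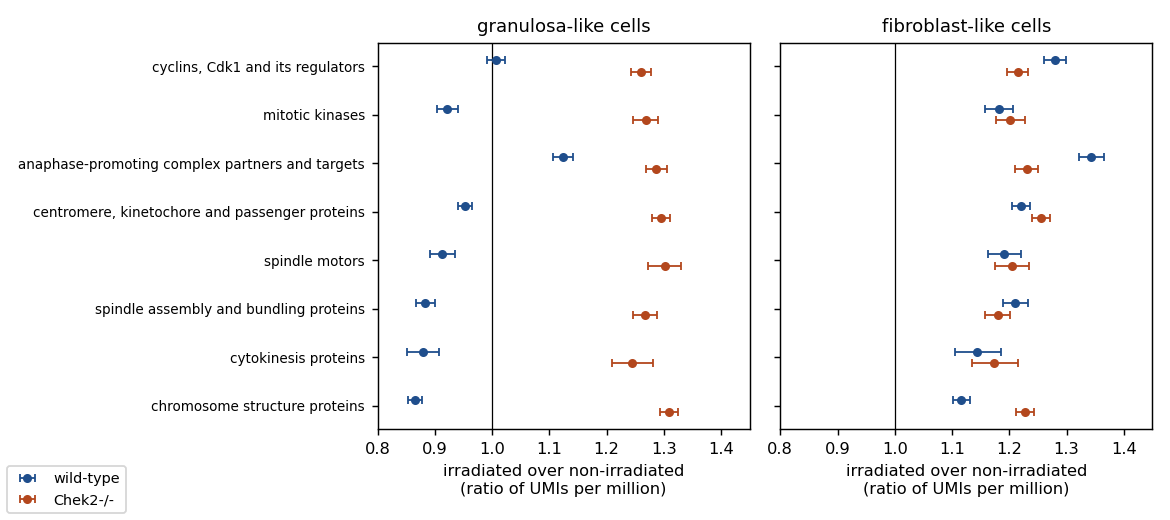
Irradiated over non-irradiated ratio of UMI CPM for the genes of each role, in granulosa-like (left) and fibroblast-like (right) cells of wild-type and Chek2-/- libraries. Bars are 95% limits of counting error and the vertical line is a ratio of 1; wild-type roles spread from 0.865 to 1.12 in granulosa-like cells, while Chek2-/- roles stay between 1.24 and 1.31.

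The members differed in size of ratio within roles. In wild-type granulosa-like cells the lowest ratios were 0.793-fold (95% limits 0.755 to 0.833) for the condensin subunit Ncapd2, 0.836-fold (95% limits 0.782 to 0.892) for Kif4 and 0.850-fold (95% limits 0.832 to 0.867) for Top2a, from 19187 and 17408 Top2a UMIs in the non-irradiated and the irradiated library. The highest were 1.29-fold (95% limits 1.23 to 1.35) for Pttg1, 1.17-fold (95% limits 1.15 to 1.20) for Ube2c and 1.05-fold (95% limits 1.03 to 1.08) for Cdk1. Ncapd2 and Top2a belong to the chromosome structure group, and Pttg1 and Ube2c to that of the anaphase-promoting complex.

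Ube2c was the member with the highest ratio in Chek2-/- granulosa-like cells (1.37-fold), in wild-type fibroblast-like cells (1.45-fold) and in Chek2-/- fibroblast-like cells (1.34-fold). Next in Chek2-/- granulosa-like cells were Knstrn (1.36) and Ccnb1 (1.36), in wild-type fibroblast-like cells Cdc20 (1.43) and Ccnb2 (1.36), and in Chek2-/- fibroblast-like cells Ccnb2 (1.34) and Knstrn (1.33). At the low end stood Wee1, the inhibitor of Cdk1, with 1.15 in Chek2-/- granulosa-like, 1.05 in wild-type fibroblast-like and 1.03 in Chek2-/- fibroblast-like cells. Fam83d (1.15) was also low in Chek2-/- granulosa-like cells, Ect2 (1.05) and Ncapd2 (1.06) in wild-type fibroblast-like cells and Sgo2a (1.12) in Chek2-/- ones.

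Pttg1 went apart from the other members in granulosa-like cells. Its level went from 39.3 to 50.6 UMI CPM in wild-type granulosa-like cells and from 41.8 to 41.7 in Chek2-/- ones, where the other 43 genes all had ratios over 1. In fibroblast-like cells it went from 63.3 to 72 in wild-type and from 61.7 to 58.8 in Chek2-/-. Pttg1 was also the lowest member in Chek2-/- perivascular-like cells (1.13-fold) and in epithelial-like cells of both genotypes (1.12-fold in wild-type and 0.926-fold in Chek2-/-), while in oocyte-like cells of both it was among the highest. Cells with at least 10 members detected (as defined for the shares of cells) are chosen by these genes, which favours higher values there. Pttg1 was still not higher in them, at 39.9 UMI CPM against 44.7 in granulosa-like cells with fewer members, and at 60.9 against 65.0 in fibroblast-like cells.

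The smaller somatic classes, macrophage-like cells of Chek2-/- ovaries excepted, had ratios over 1. Perivascular-like cells had 1.33 (1.30 to 1.36) in wild-type and 2.30 (2.21 to 2.38) in Chek2-/-, and epithelial-like cells 2.11 (2.04 to 2.17) and 1.35 (1.32 to 1.39). Endothelial-like cells had 1.25 (1.21 to 1.29) and 1.13 (1.09 to 1.16), and pericyte-like cells 1.09 (1.05 to 1.14) and 1.75 (1.69 to 1.81). With doublets kept the wild-type pericyte-like ratio turned to 0.940. Macrophage-like cells, of which there were 23 to 54 per library, had 1.06 (0.965 to 1.17) and 0.545 (0.489 to 0.605). At least 1.25-fold higher were 31 of 44 members in wild-type perivascular-like cells (12.5% of genes) and 41 of 42 in Chek2-/- ones (10.4%). In epithelial-like cells they were 41 of 42 in wild-type (18.7%) and 28 of 43 in Chek2-/- (10.4%), in endothelial-like cells 18 and 7 of 44 (8.11% and 10.9%), and in pericyte-like cells 8 of 40 and 37 of 43 (11.5% and 13.9%). Lower by as much were 1 and 0 members in perivascular-like cells of wild-type and Chek2-/- ovaries (8.01% and 9.43% of genes), 0 and 0 in epithelial-like (21.5% and 6.69%), 2 and 1 in endothelial-like (11.2% and 8.73%) and 4 and 1 in pericyte-like cells (14.1% and 11.2%). The genotype with the higher ratio thus changed from class to class. Of the members with at least 50 UMIs in macrophage-like cells, 3 of 13 were higher and 3 lower in wild-type (19.7% and 20.9% of genes), and 0 of 10 higher and 8 lower in Chek2-/- (20.6% and 19%).

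In perivascular-like cells the highest members were Cdc25c (1.99), Fam83d (1.90) and Kif20a (1.65) in wild-type and Kif2c (3.91), Ube2c (3.30) and Kif20a (3.23) in Chek2-/-, and the lowest Nek2 (0.735), Cep55 (0.865) and Kif4 (1.07) in wild-type and Pttg1 (1.13), Wee1 (1.28) and Ncapd2 (1.77) in Chek2-/-. In epithelial-like cells the highest were Aurka (4.27), Ccnb1 (4) and Ube2c (3.46) in wild-type and Cep55 (1.83), Aurka (1.82) and Top2a (1.80) in Chek2-/-, and the lowest Pttg1 (1.12), Wee1 (1.32) and Ncapd2 (1.36) in wild-type and Pttg1 (0.926), Ccnb2 (0.974) and Cenpe (1.01) in Chek2-/-. Aurka, at the top in wild-type epithelial-like cells, rested on 21 and 138 UMIs, and Kif2c, at the top in Chek2-/- perivascular-like cells, on 18 and 76. Pttg1 and Wee1 recurred at the low end of these classes.

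In endothelial-like cells the highest were Kif2c (2.54), Hmmr (1.88) and Cdc20 (1.80) in wild-type and Cdkn3 (1.60), Ccnb2 (1.42) and Bub1 (1.37) in Chek2-/-, and the lowest Cdc25c (0.721), Fam83d (0.784) and Mki67 (0.988) in wild-type and Cdc25c (0.789), Kif11 (0.809) and Prc1 (0.813) in Chek2-/-. In pericyte-like cells the highest were Cdc25b (3.09), Cdca3 (1.71) and Ube2c (1.61) in wild-type and Fam83d (2.46), Ube2c (2.44) and Kif23 (2.33) in Chek2-/-, and the lowest Bub1 (0.650), Ncapd2 (0.692) and Bub1b (0.715) in wild-type and Wee1 (0.768), Pttg1 (0.930) and Ect2 (1.17) in Chek2-/-. Few cells carried these values, and the limits of single genes were wide.

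Cells with at least 10 of the 44 genes detected, after each cell was thinned to 5000 UMIs, are called dividing here, which names a range of the count, not a cell type or a measured division. Cells with fewer UMIs than that were left out of the shares. Most somatic cells were far from that mark, with none detected in 18.3% of granulosa-like and 16.6% of fibroblast-like cells, 1 to 4 detected in 54.9% and 60.2%, and 20 or more in 12.4% and 10.8%. In granulosa-like cells the share with at least 10 was 19.4% (95% limits 17.9 to 20.8, 568 of 2933 cells) in non-irradiated wild-type and 17.2% (95% limits 15.9 to 18.5, 580 of 3381 cells) in irradiated wild-type. In Chek2-/- it was 18.5% (95% limits 17.1 to 19.9, 582 of 3153 cells) without and 24.5% (95% limits 23.1 to 26, 838 of 3422 cells) with irradiation. Cells with 8 to 12 members, near the mark, numbered 104 to 156 per library among granulosa-like cells.

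In fibroblast-like cells the share was 15.2% and 19.2% in wild-type and 15.5% and 19.7% in Chek2-/-, without and with irradiation. In granulosa-like and fibroblast-like cells as classes the shares went the same way as the levels, but in wild-type oocyte-like cells the share was 87.7% without and 80.2% with irradiation while the level ratio was over 1. These oocyte-like shares rested on 179 and 101 cells, after 17 and 70 shallower ones were left out. Their 95% limits overlapped (82.0 to 92.1 and 71.1 to 87.5), and 63 and 36 of the cells had 8 to 12 members. In epithelial-like cells the share was 3.83% (95% limits 1.55 to 7.72, 7 of 183 cells) in non-irradiated and 14.3% (95% limits 10.3 to 19.1, 38 of 266 cells) in irradiated wild-type. Cells with 8 to 12 members numbered 7 and 17 there, so the share rested on few cells, many of them near the mark. Cells with at least 10 members were 19.9% of granulosa-like and 17.4% of fibroblast-like cells thinned, and held 88.6% and 89.0% of the UMIs of the 44 genes in those classes. The cells were chosen by these same genes, so a high part was built in by the rule. Without thinning, Top2a was detected in 39.7%, 36.0%, 40.4% and 50.4% of granulosa-like cells in the 4 libraries and after thinning in 24.3%, 22.2%, 24.5% and 32.7%, at median depths of 20722, 19661, 21168 and 23074 UMIs.

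Dividing granulosa-like cells were richer in Amh, the anti-Müllerian hormone of granulosa cells in growing follicles. A UMI of Amh was found in 78.2% (95% limits 76.5 to 79.8) of granulosa-like cells with at least 10 members and in 55.5% (95% limits 54.5 to 56.4) of the others, beside 2.74% of fibroblast-like cells with at least 10, a type that should lack it. Seen the other way, 26% of granulosa-like cells with a UMI of Amh and 10.9% of those without had at least 10 members, and the order was the same in each of the 4 libraries. The granulosa-like cells with at least 10 members had more UMIs before thinning (median 33198 against 19693), and over all classes doublets had been called in 7.36% of the cells with at least 10 members and in 3.84% of the others.

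The p53 targets were compared between dividing and other cells within libraries. In the irradiated wild-type library Cdkn1a was detected in 14.8% (95% limits 12 to 18) of granulosa-like cells with at least 10 members and in 24.6% (95% limits 23 to 26.3) of the others, and Ccng1 in 18.8% (95% limits 15.7 to 22.2) and 27.3% (95% limits 25.7 to 29). In irradiated wild-type fibroblast-like cells the values were 19.9% (95% limits 17.3 to 22.6) and 23.5% (95% limits 22.1 to 24.9) for Cdkn1a, and 23.5% and 23.4% for Ccng1. Without irradiation Cdkn1a was found in 1.94% and 1.31% of wild-type granulosa-like cells, and Ccng1 in 3.87% and 7.02%. These are shares of cells with a UMI and were not corrected for free RNA, whose part was not tested. In the irradiated wild-type library the cluster led by Gm2044 held 1297 of 3381 thinned granulosa-like cells, but 31 of the 580 with at least 10 members. Dividing and other cells thus differed in cluster makeup, whose part in these shares was not tested. By class, Cdkn1a stood at 4.85, 74.2, 2.38 and 5.13 UMI CPM in granulosa-like cells of the 4 libraries and at 4.86, 88.6, 4.54 and 8.58 in fibroblast-like cells.

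Oocyte-like cells carried these genes in another proportion than dividing somatic cells. The dividing somatic cells were chosen as cells with at least 10 of these genes, which favours higher values there, so the values are a description. Top2a stood at 29.4 against 943 UMI CPM (oocyte-like against dividing somatic cells, 4 libraries pooled), Ncapd2 at 8.78 against 130, and Pbk at 15.2 against 208. At the other end, Pttg1 stood at 443 against 49.4, Kif4 at 229 against 86.6 and Ect2 at 177 against 70.3. Ube2c and Birc5 were the most abundant of the 44 in oocyte-like cells, at 1179 and 764, against 785 and 505 in dividing somatic cells. Most oocyte-like cells had many of the genes, 87.7%, 80.2%, 91.5% and 90.3% having at least 10 in the thinned cells of the 4 libraries, but only 9.05% had 20 or more.

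**Figure D5:**
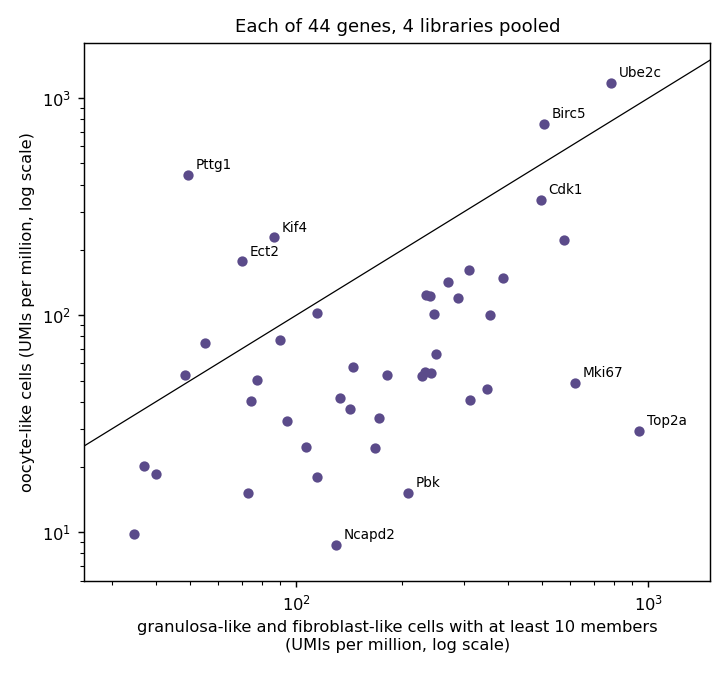
Level of each of the 44 genes in oocyte-like cells (vertical) against granulosa-like and fibroblast-like cells with at least 10 of the genes (horizontal), as UMI CPM on log axes with the 4 libraries pooled. The line marks equal levels; Pttg1 (443 against 49.4), Kif4 and Ect2 lie above it and Top2a (29.4 against 943), Ncapd2, Pbk and Mki67 far below.

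The irradiated wild-type oocyte-like cells were shallow, with a median of 14183 UMIs in 171 cells against 181496 in 196 non-irradiated ones, and their mitochondrial share was lower (2.35% against 5.76%). In Chek2-/- the medians were 159206 and 119438 UMIs in 75 and 141 cells. The summed ratio of the 44 genes was 1.14 (1.13 to 1.15) in wild-type and 1.01 (1 to 1.02) in Chek2-/-. Taken as a mean over cells, the wild-type ratio was 0.910, so its direction depended on how cells were weighted. In cells with at least 5000 UMIs the wild-type ratio was 1.15 (1.14 to 1.16), and in those with at least 50000 it was 1.18 (1.17 to 1.19), while the Chek2-/- ratio was 1.01 and 1.00.

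Within oocyte-like cells Fam83d had by far the highest wild-type ratio, 4.57-fold (95% limits 3.93 to 5.34), from 251 and 531 UMIs. Its level was 8.68, 39.7, 9.27 and 11.2 UMI CPM in the 4 libraries, so that the irradiated wild-type library stood apart from the other 3. Among cells with at least 50000 UMIs, 131 non-irradiated and 51 irradiated, the ratio was 4.63 (3.96 to 5.43), as large as over all cells. The Chek2-/- ratio was 1.21-fold (95% limits 0.952 to 1.54), and in granulosa-like and fibroblast-like cells the wild-type ratio was 0.968 and 1.26. Fam83d was also the member with the highest wild-type estimate in bulk.

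After Fam83d came Kif2c (1.82-fold) and Pttg1 (1.53-fold) in wild-type oocyte-like cells, and the lowest were Hmmr (0.649), a spindle pole protein, Wee1 (0.727) and the kinetochore motor Cenpe (0.794). At least 1.25-fold higher were 12 of 44 members and lower 3, where 22.4% and 25% of genes were. In Chek2-/- oocyte-like cells Pttg1 (1.38), Bub1b (1.36) and Nek2 (1.30) were highest and Hmmr (0.813), Pbk (0.822) and Sgo2a (0.871) lowest. Higher by at least 1.25-fold were 4 of 44 (16.2% of genes) and lower 0 (5.04%). With the libraries pooled, oocyte-like cells over the median of the zona pellucida genes and Gdf9 also differed from the others. Kif2c stood at 97.3 against 45.2 UMI CPM, Pttg1 at 583 against 226 and Hmmr at 29.1 against 41. Wee1 went the other way (42.6 against 36.3). In irradiated wild-type the cells over the median were deeper (median 39099 against 4199 UMIs) and weighed more in the sums. The part of growth stage in these ratios was not tested.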

How the data were processed

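The members and the gene lists were chosen with earlier results of these data known. Per the labels and methods, polyA RNA of whole ovaries was sequenced as 100 bp paired reads, and the authors quantified genes with Salmon 1.3.0 after FastQC 0.11.9, Trim Galore 0.6.5 and MultiQC 1.9. The deposited bulk values are estimated counts that the authors made with Salmon and did not scale between libraries, which were rounded to whole numbers here. The deposited single-cell files hold UMI counts that the authors made with Cell Ranger on mm10 and bcl2fastq 2.20.0.422, for 9488 to 11053 barcodes per library.

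Bulk genes with at least 10 counts over the 24 libraries were fitted with edgeR 4.0.16 (quasi-likelihood, TMM, 1 coefficient per group), Benjamini-Hochberg adjustment over all genes and a threshold of 0.05 (a second rule added 2-fold). Levels are CPM, and 3 counts, taken as the floor, correspond to 0.0931 to 0.168 CPM. DESeq2 1.42.0, limma 3.58.1, other scalings and filters, a replicate block and each replicate left out were alternatives. The fit was tested on simulated data. Same-group libraries differed by more than counting noise (chi-square per degree of freedom at least 6.25), so none was merged.

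Single cells (scanpy 1.11.5) with at least 1000 genes, at most 20% mitochondrial and 50% ribosomal UMIs were kept, Scrublet doublets (4.02% to 5.47% per library) were removed, and Leiden clusters at resolution 0.5 used 2000 variable genes without 1042 cycle-related ones. Shares, levels and ratios of UMI counts carry exact binomial 95% limits. Classes were named from at least 3 markers, and clusters over 3 times shallower than their library were kept apart. UMI sums, with no model, gave levels. A ratio of 1.25 and the minimum of 5000 or 50000 UMIs for deep cells were chosen after seeing the data.

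Named were genes past the threshold, the 3 highest and 3 lowest estimates or ratios per comparison, a set of 23 members named throughout, and, of other lists, up to 3 called genes with Foxm1, Mybl2, Cdkn1a, Ccng1 and Chek2. Other genes were named after their values were seen.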

Additional observations from a re-analysis of the deposited data

Results flagged for a closer look

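A check of the named genes in each group of 6 libraries (112 groups in all) found 22 values lying far from the other 5. Chance marks about 1 in 20 groups where groups are independent. These were not, since the genes were measured in the same libraries and 1 low library can mark many genes. Of these, 10 were in Chek2-/- non-irradiated library 6 and 8 in Chek2-/- irradiated library 6, all low. In the non-irradiated library 6 they were Cdk1 (65.8 CPM), Ccnb1 (62.2), Aurka (36.6), Ube2c (79.3), Birc5 (70.1), Cenpf (115), Tpx2 (92.4), Racgap1 (72.4), Pttg1 (28.7) and the transcription factor Mybl2 (74.6). In the irradiated library 6 they were Cdk1 (71.1 CPM), Aurka (41.1), Ube2c (93.6), Birc5 (80.1), Bub1 (40.9), Kif11 (79.1), Cenpf (124) and Pttg1 (31.8). Elsewhere, irradiated wild-type library 4 was low in Ccnb1 (83.0 CPM) and Bub1 (45.5), irradiated wild-type library 5 was low in Mybl2 (99.7) and non-irradiated wild-type library 1 was high in Pttg1 (70.3).

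The irradiation effect differed between genotypes in edgeR's quasi-likelihood test, after adjustment over all genes, for 5 genes of the neighbouring lists and for none of the 44. The log2 difference, Chek2-/- subtracted from wild-type, was 0.50 for Ckap2 and 0.80 for Gtse1, and it was 1.36 for Cdkn1a, 1.47 for Ccng1 and 1.13 for Btg2. In all 5 the wild-type libraries rose with irradiation.

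In single cells the ratio of the summed 44 genes lay on opposite sides of 1 in the genotypes in granulosa-like cells, with 0.95 (0.944 to 0.956) in wild-type and 1.28 (1.28 to 1.29) in Chek2-/-. At fixed cluster weights both lay above 1, at 1.09 and 1.16. In macrophage-like cells the ratios were 1.06 in wild-type, with limits of 0.965 to 1.17 that include 1, and 0.545 (0.489 to 0.605) in Chek2-/-. These differences were not tested, since each condition had 1 library. The 44 genes reached 8142 UMI CPM in 169 cells of few UMIs (median 2252) from the irradiated wild-type library that were kept apart from the classes, against 2 such cells in each of the other libraries.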

How the results depend on the processing

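Other settings left the bulk counts of called members at 0 in Chek2-/- ovaries and for the difference between genotypes. In wild-type ovaries 1 member (Fam83d) was called with the replicate block (2.47% of all genes), with only the wild-type libraries in the fit (2.89%) and without both Chek2-/- libraries numbered 6 (3.81%), and 0 with each replicate left out in turn. Between genotypes without irradiation the count was 1 with upper quartile scaling (5.66% of all genes), 2 with edgeR's own low-count filter (9.28%), 3 with the replicate block (7.56%), 2 with DESeq2 (15.9%), 3 without both libraries 6 (7.09%), and 0 to 1 with each replicate left out. The labels do not say whether equal replicate numbers pair samples across groups, and the values do not settle it. Correlations of deviations between libraries of equal number ran from -0.06 to 0.36. After irradiation 3 of 6 were over 0.1 in wild-type and 3 of 6 in Chek2-/-. Of 6 libraries, 3 correlated best with their own number in wild-type and 1 in Chek2-/-. The block called Fam83d after irradiation and Smc2, Pttg1 and Knstrn between genotypes. Of the neighbouring lists, the 2-fold rule left 4 genes called in wild-type, 0 in Chek2-/-, 3 for the difference between genotypes and 1 between genotypes. Without libraries 6 the lists had 16 genes called in wild-type (3.81% of all genes) and 21 between genotypes (7.09%). Between genotypes the replicate block gave 18 (7.56%), DESeq2 16 (15.9%), only the groups compared 5 (3.17%), and single replicates left out 2 to 10. The choice to leave out libraries 6, and the single-cell settings on shallow cells, cells with at least 5000 UMIs and fixed cluster weights, were made after seeing the data. The granulosa-like wild-type ratio was 0.991 with doublets kept, 0.932 as a mean over cells, 0.956 with shallow cells counted and reversed to 1.09 at fixed cluster weights. The granulosa-like Chek2-/- ratio was 1.31 with doublets kept, 1.32 as a mean over cells and 1.16 at fixed weights. The fibroblast-like ratio was 1.20 with doublets kept, 1.22 with cycle genes among the variable genes and 1.26 as a mean over cells in wild-type, and 1.24, 1.24 and 1.15 with cycle genes, as a mean over cells and at fixed weights in Chek2-/-. The pericyte-like wild-type ratio reversed to 0.940 with doublets kept and the oocyte-like one to 0.910 as a mean over cells. Where no value above shows it, the cause was not tested. The bulk values that answer a comparison were counts of called genes. Under the other settings 178 of these counts equalled the main count or lay near it, 0 against 0 included, and 28 moved. In single cells 39 of the values that answer a comparison stayed, 12 moved and 1 reversed, while of the other single-cell values 67 stayed, 53 moved and 2 reversed. The members' SE ran from 0.05 to 0.17 in bulk, and the single-cell libraries had no replicates.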

Other observations

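Among oocyte-like cells, those with more of the zona pellucida genes and Gdf9, which mark the start of growth, had the higher level of the 44 genes in each of the 4 libraries. The level was 4561 UMI CPM at or under the median and 5735 over it in non-irradiated wild-type, 4469.7 and 6399.8 in irradiated wild-type, 5266 and 6156 in non-irradiated Chek2-/-, and 4913 and 6299.7 in irradiated Chek2-/-. With the libraries pooled, Kif23, a centralspindlin motor, stood at 25.3 and 70.4, Pttg1 at 226 and 583 and Bub1b at 19.7 and 48.1, while Ube2c stood at 1183 and 1177 and Hmmr at 41 and 29.1. The median depth differed between these cells in irradiated wild-type (4199 against 39099 UMIs), non-irradiated Chek2-/- (141038 against 224404) and irradiated Chek2-/- (102897 against 170652). It was close in non-irradiated wild-type (181325 against 182006). The part of depth in these levels was not tested.

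The 28 S phase genes had irradiated over non-irradiated ratios of 0.870 in wild-type and 1.18 in Chek2-/- granulosa-like cells, and of 1.07 and 1.10 in fibroblast-like cells, and the 55 further G2 and mitosis genes 0.933 and 1.20, and 1.18 and 1.17. The 9 cell cycle brakes had 1.63 and 0.825 in granulosa-like cells and 1.46 and 1.25 in fibroblast-like cells. Foxm1 stood at 13.7, 11.1, 13.1 and 17.1 UMI CPM in granulosa-like cells of non-irradiated wild-type, irradiated wild-type, non-irradiated Chek2-/- and irradiated Chek2-/-, and Mybl2 at 11.5, 9.01, 11.1 and 15. In oocyte-like cells Mybl2 was higher, at 121, 126, 146 and 156.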
